A study of Mus musculus with 6 samples.

Results

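Potassium channel genes were examined in hippocampal RNA from 63-week-old mice, with 3 animals labelled wildtype and 3 labelled HGPS transgenic. The abbreviation is the usual one for Hutchinson-Gilford progeria, in which altered lamin A leads to early ageing. The set was chosen by gene symbol alone, as every gene whose symbol begins with Kcn, continues with further letters and then a number, and whose probe carries no other symbol. It held 72 of the 14860 genes measured, on 73 probes, since only Kcnc1 had a second probe. Each animal was hybridised to 1 Affymetrix array, and the deposited values are log2 expression, so a difference of 1 is a factor of 2. The labels used here state neither the strain nor the promoter of the transgene or the cells it is active in.

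Potassium channels let potassium leave or enter a cell and so set its resting potential, the shape of its action potentials and its firing rate. Voltage-gated channels (the Kv families) open on depolarisation, calcium-activated channels link firing to calcium entry, and inward rectifiers and K2P leak channels carry current near rest. In hippocampus these genes divide labour between cells. A-type and M-type channels shape pyramidal cell firing, Kv3 channels allow the fast spikes of interneurons, and inward rectifiers of astrocytes clear potassium that active neurons release. Genes of these families encode either pore-forming subunits or auxiliary subunits that change trafficking and gating.

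The groups differed in more than genotype. The mean log2 level of the Y-linked genes Eif2s3y and Kdm5d reached 8.41 in wildtype replicate 2 and 8.45 in wildtype replicate 3, whereas wildtype replicate 1 had 4.63 and the transgenic animals had 4.67 to 4.78. As read from this signal the groups were unbalanced by sex, so the 10 genes of smallest p, and other genes where stated, are also given with the signal as a covariate. Markers of tissue around the hippocampus also differed between the animals, as described beside the genes they concern. None of the 14 measured genes of hippocampal pyramidal and granule neurons lay among the dimmest 33.3% of the probes. Their mean level relative to the 6 arrays stayed between -0.06 and 0.07 in wildtype and between -0.07 and 0.02 in transgenic animals. Single genes could still differ, 6 being higher and 8 lower, and the lowest, Bok, was at -0.40 ± 0.11 (SE) without overlap. Of 9 thalamus and habenula markers 7 were higher and 2 lower, from -0.23 for Prkcd to 0.45 for Slc17a6. The table holds no detection calls, so no gene can be said to be absent, and 17 of the 72 channel genes lay among the dimmest 33.3%.

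No potassium channel gene passed the false discovery rate of 10% used for the series. In limma with Benjamini-Hochberg adjustment over all 14996 probes 0 of 72 were called, beside 7 probes or 0.0467% of the whole table, and the smallest adjusted p among the members was 0.431. At an unadjusted p under 0.05 there were 10 of 72, or 13.9%, against a background of 10.6%. Of these 10, 7 were higher in transgenic animals (9.72% of the set, background 5.81%) and 3 lower (4.17%, background 4.8%). The 3 transgenic animals lay wholly above or wholly below the 3 wildtype animals in 12 members, or 16.7%, while 17.7% of all probes were split in that way. In 9 of them the transgenic animals were higher (background 9.14%) and in 3 lower (background 8.55%). These shares are near those of the whole table.

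The sizes of the differences were close to those of the table as a whole. The median absolute log2 difference was 0.08 for the members and 0.08 for all probes, and the median residual SD was 0.10 in both. The signed median was 0.03 for the members (interquartile range -0.07 to 0.09), with 41 above and 31 below 0, and all probes had a median of 0.00. No member reached 1.5-fold, which 0.814% of all probes did. The 95% interval excluded a 2-fold difference for all 72 members (98.3% of all probes) and a 1.5-fold difference for 69 (91.9% of all probes). Only for Kcnj2, Kcnj14 and Kcne2 did it reach beyond 1.5-fold. The precision is limited by 3 arrays per group, and in tissue samples fewer cells of a type cannot be told apart from less RNA per cell.

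**Figure D1:**
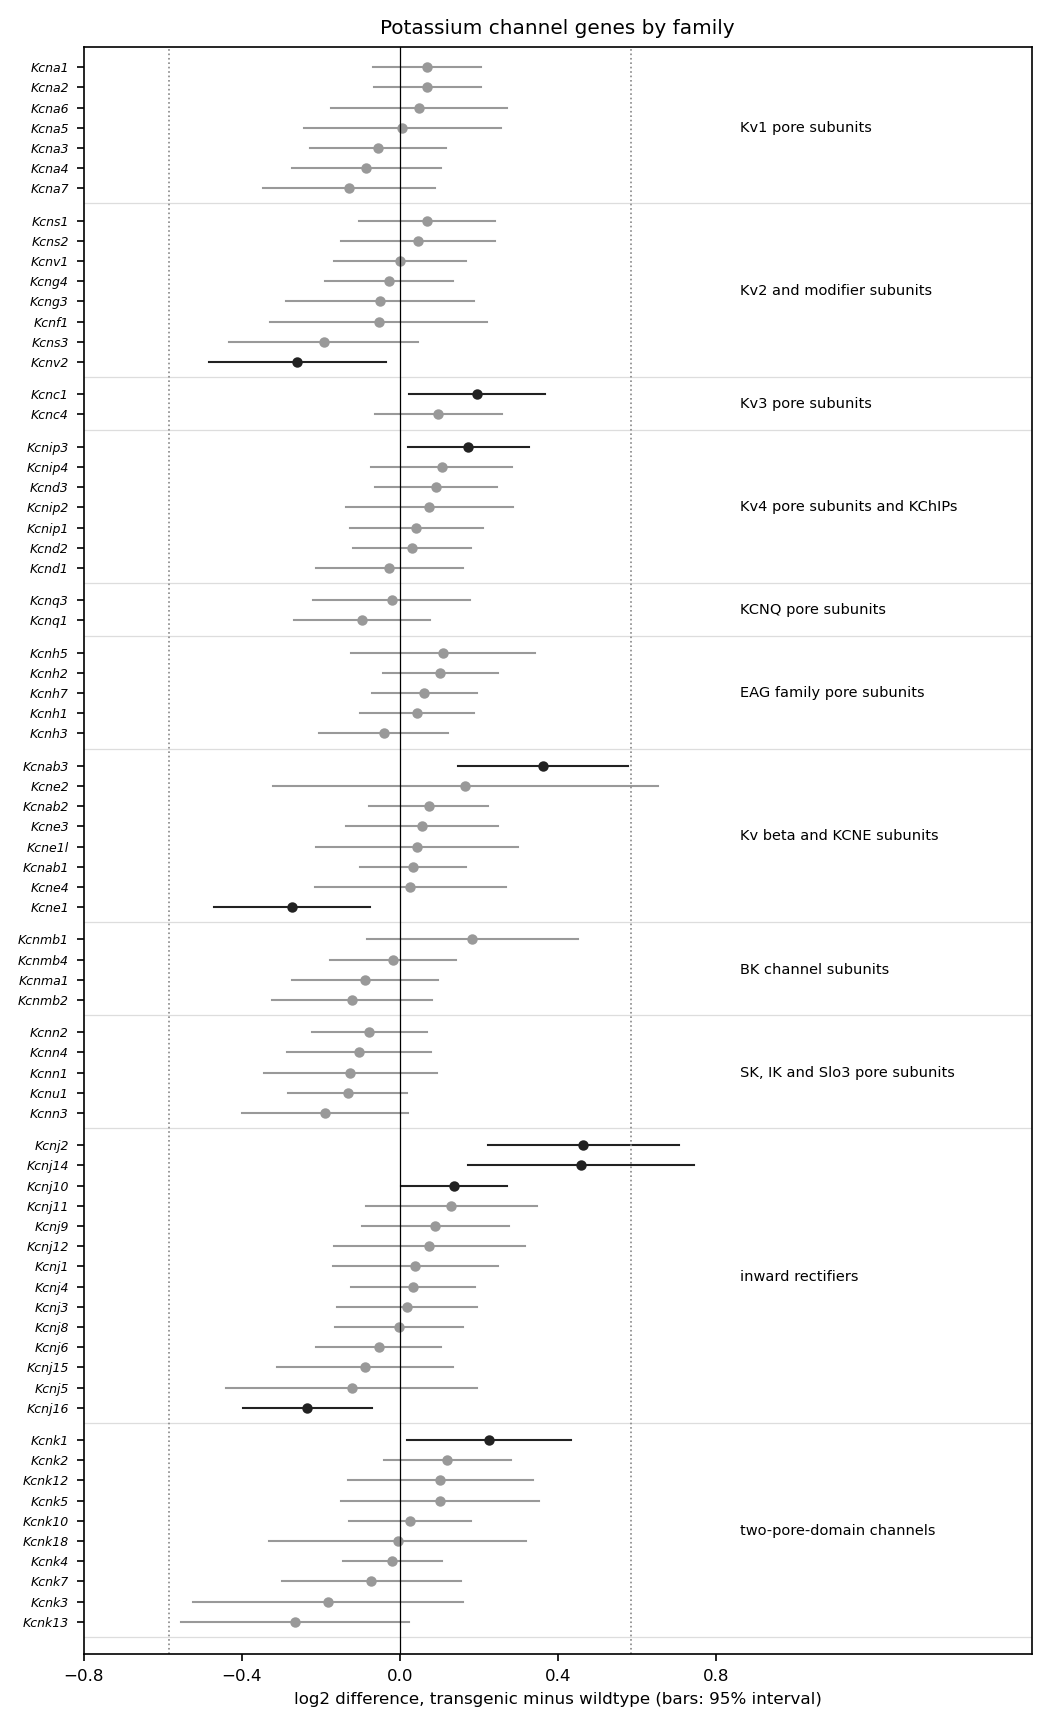
Log2 difference of each of the 72 genes, transgenic minus wildtype (points), with limma's 95% interval (bars), grouped by family. Dotted lines mark 1.5-fold either way and black marks the 10 genes with an unadjusted p under 0.05. All points lie between -0.27 and 0.46, and 69 of the intervals lie between the dotted lines.

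Inward rectifiers held the widest differences of any family, with 14 members measured from -0.23 to 0.46 and a median of 0.04. Kcnj2 encodes Kir2.1, the strong inward rectifier that holds neurons and muscle near rest. Its log2 level was 7.41, 7.30 and 7.32 in wildtype replicates 1 to 3 and 7.85, 7.59 and 7.98 in the transgenic animals. All transgenic values lay above all wildtype values, and transgenic replicate 2 was the nearest to them. The difference was 0.46 ± 0.10 (SE, n = 3 per group), or 1.38-fold, with a limma adjusted p of 0.431. It was 0.40 ± 0.15 when the Y-linked signal was a covariate. The 13 measured endothelial markers were all higher in transgenic animals, 5 at an unadjusted p under 0.05 (38.5%, background 10.6%). Their mean level relative to the 6 arrays was -0.22 to 0.00 in wildtype and 0.07 to 0.16 in transgenic animals. Their median difference was 0.21, and 0.10 with the covariate. Endothelial cells are among those that express Kcnj2, and their part in the difference was not tested.

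Kcnj16 encodes Kir5.1, a subunit that forms no strong current alone and joins Kir4.1 in astrocytes. It lies next to Kcnj2 on chromosome 11, with 0 annotated genes between them in the GRCm38.p6 gene order, and its difference pointed the other way. In Kcnj16 wildtype replicates 1 to 3 had 8.03, 8.01 and 8.09, and the transgenic animals 7.80, 7.91 and 7.72. The transgenic animals were all lower, by 0.23 on average, and the 3 wildtype values lay within a narrow band. The difference was -0.23 ± 0.07 (SE), or 85.0% of the wildtype level (limma adjusted p = 0.431), and -0.22 ± 0.10 when the Y-linked signal was a covariate. Kcnj10 encodes Kir4.1, the astrocyte channel that buffers potassium and the partner of Kir5.1. Its levels were 10.16, 10.11 and 10.17 in wildtype and 10.30, 10.25 and 10.31 in transgenic animals. The groups did not overlap in Kcnj10 either, and here the transgenic animals were higher, by 0.14 ± 0.06 (SE, limma adjusted p = 0.465), and by 0.13 ± 0.09 with the covariate. Of 11 astrocyte markers 7 were higher, with 2 at an unadjusted p under 0.05 (18.2%, background 10.6%). Their mean relative level was -0.11 to 0.01 in wildtype and -0.02 to 0.09 in transgenic animals. The 2 partner subunits pointed in opposite ways, and whether the 2 differences differ from each other was not tested.

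The promoters of these 3 genes are printed because the neighbours Kcnj2 and Kcnj16, and the partners Kcnj16 and Kcnj10, pointed in opposite directions. RefSeq sequences of GRCm38.p6 were available for 57 of the 72 members, as 300 bases from 250 before to 50 after each start. Those of Kcnj2 (chr11:111065914-111066213, plus strand), of the Kcnj16 start nearest to it among 4 (chr11:111023610-111023909, plus strand) and of Kcnj10 (chr1:172340960-172341259, plus strand) follow. Capitals mark the letters GGGCGG (GC box) and CACGTG (E-box) on either strand.
Kcnj2: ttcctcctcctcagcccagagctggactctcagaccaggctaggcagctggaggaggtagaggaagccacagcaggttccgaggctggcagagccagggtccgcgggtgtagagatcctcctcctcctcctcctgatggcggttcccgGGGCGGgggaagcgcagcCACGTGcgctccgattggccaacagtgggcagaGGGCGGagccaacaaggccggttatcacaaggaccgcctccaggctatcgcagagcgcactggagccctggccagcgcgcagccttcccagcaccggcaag
Kcnj16: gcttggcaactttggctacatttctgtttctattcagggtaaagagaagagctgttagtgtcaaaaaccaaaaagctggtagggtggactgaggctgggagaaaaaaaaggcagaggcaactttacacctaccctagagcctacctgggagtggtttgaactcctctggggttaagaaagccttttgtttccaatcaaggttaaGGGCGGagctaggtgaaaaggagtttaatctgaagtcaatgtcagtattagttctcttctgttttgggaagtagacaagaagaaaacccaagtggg
Kcnj10: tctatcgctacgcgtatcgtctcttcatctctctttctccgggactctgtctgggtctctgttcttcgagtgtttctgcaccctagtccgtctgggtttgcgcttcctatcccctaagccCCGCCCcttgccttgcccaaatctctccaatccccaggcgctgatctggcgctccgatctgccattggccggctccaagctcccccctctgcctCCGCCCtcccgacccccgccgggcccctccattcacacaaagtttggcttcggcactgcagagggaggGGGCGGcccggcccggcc
The Kcnj2 window held 2 GC boxes and 1 E-box, the Kcnj16 window 1 GC box and the Kcnj10 window 3. None of the 3 windows held TATAAA on either strand. GC boxes stood in 51.3% of the 78 member promoters and 35.7% of all 32851, E-boxes in 7.69% and 7.15%, and TATAAA in 5.13% and 13.6%. The 3 motifs share no letters in these windows, and a match describes the sequence only.

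Kcnj14, the Kir2.4 subunit of the same strong rectifier group, was at 5.23, 5.60 and 5.25 in wildtype and 5.75, 5.72 and 5.98 in transgenic animals. Wildtype replicate 2 came nearest to the transgenic animals, and the groups did not overlap. The difference was 0.46 ± 0.12 (SE, limma adjusted p = 0.431), on a probe among the dimmest 33.3% of the table, and 0.58 ± 0.17 when the Y-linked signal was a covariate. The other strong rectifiers differed little, Kcnj12 by 0.07 ± 0.10 and Kcnj4 by 0.03 ± 0.07. GIRK channels, which G protein-coupled receptors such as GABA-B open to silence neurons, were near 0. Kcnj3, their most general subunit, differed by 0.02 ± 0.08 (SE) with a 95% interval from -0.16 to 0.20. Kcnj6, its partner in pyramidal cells, differed by -0.05 ± 0.07, and Kcnj9 and Kcnj5 by 0.09 ± 0.08 and -0.12 ± 0.14. With the covariate Kcnj6 turned to 0.01 ± 0.09, and Kcnj9 and Kcnj5 were 0.21 ± 0.10 and -0.29 ± 0.18. Among the ATP-sensitive channels Kcnj11, the neuronal pore, differed by 0.13 ± 0.09.

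Kcnj8, the pore of ATP-sensitive channels in pericytes and a defining gene of those cells, stood at 7.45, 7.35 and 7.46 in wildtype and between 7.34 and 7.50 in transgenic animals. The groups overlapped throughout, and the 95% interval ran from -0.16 to 0.16. Its sulfonylurea receptor partner Abcc9 differed by 0.04 ± 0.08 (SE). Of the 11 pericyte and smooth muscle markers 10, Abcc9 among them, were higher in transgenic animals, with a median of 0.44. The list mixes both cell types and was uneven, from 1.36 for Acta2 to -0.32 for Higd1b. Cspg4 differed by 0.00 ± 0.06, Pdgfrb by 0.21 ± 0.09 and Rgs5 by 0.19 ± 0.09. Larger differences without overlap were found in Vtn, at 0.64 ± 0.18, and Des, at 0.53 ± 0.09. These became 0.21 ± 0.11 for Vtn and 0.35 ± 0.10 for Des with the covariate. The mean relative level of that list was -0.36 in wildtype replicate 2 and -0.34 in replicate 3, but 0.13 in replicate 1. The transgenic animals had 0.09 to 0.25.

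**Figure D2:**
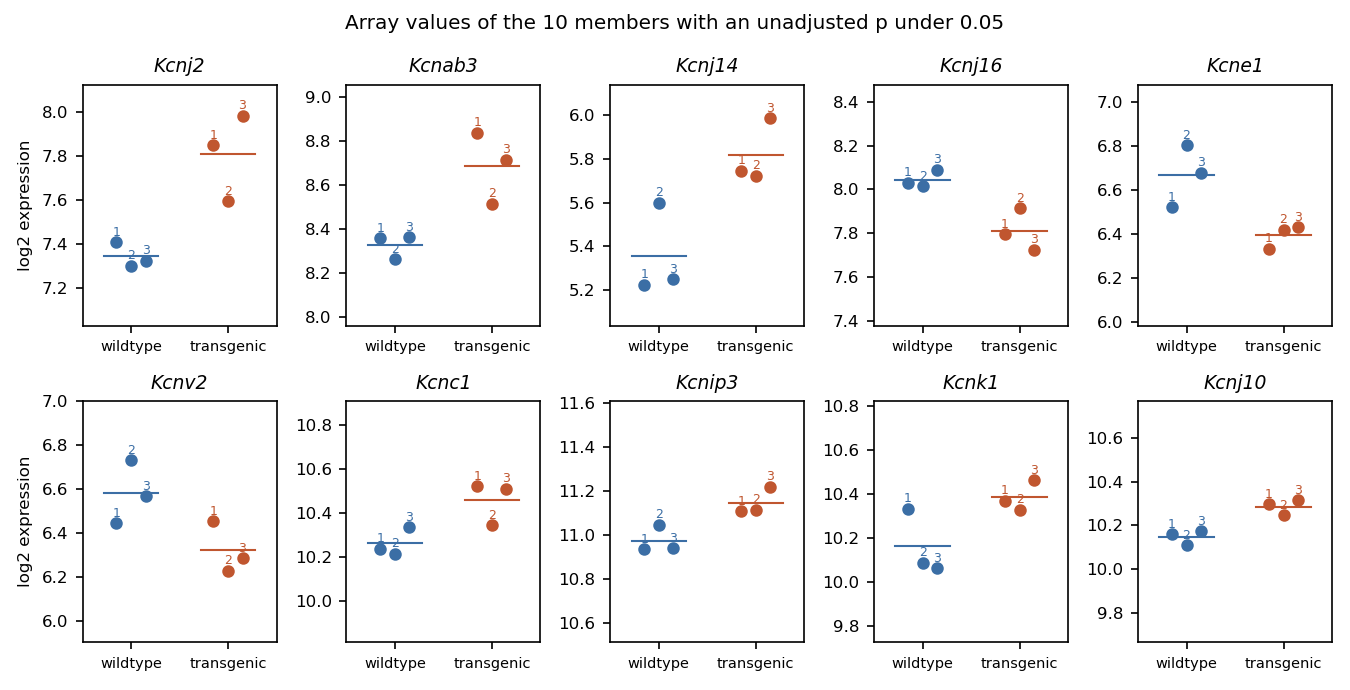
Log2 expression in each array of the 10 genes with an unadjusted p under 0.05, wildtype in blue and transgenic in orange, with the replicate number above each point and the group mean as a bar. Every panel spans the same range of log2 units. The groups overlap in Kcnk1 and Kcnv2 and are apart in the other 8.

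Among the auxiliary subunits of Kv channels, Kcnab3 had the second smallest p of all members. It encodes a cytoplasmic beta subunit of Kv1 channels. Levels were 8.36, 8.26 and 8.36 in wildtype and 8.84, 8.51 and 8.72 in transgenic animals. All transgenic values lay above the wildtype ones, with transgenic replicate 2 again the nearest. The difference was 0.36 ± 0.09 (SE), or 1.29-fold (limma adjusted p = 0.431), and 0.33 ± 0.14 when the Y-linked signal was a covariate. The other beta subunits, Kcnab2 and Kcnab1, differed by 0.07 ± 0.06 and 0.03 ± 0.06. Kcne1, the single-pass subunit best known for slowing Kcnq1 channels in heart, had 6.52, 6.80 and 6.68 in wildtype and 6.33, 6.42 and 6.43 in transgenic animals. The transgenic animals were lower by 0.27 on average, without overlap, on a probe among the dimmest 33.3%. The difference was -0.27 ± 0.08 (SE, limma adjusted p = 0.431), but -0.13 ± 0.10 when the Y-linked signal was a covariate, and wildtype replicate 1 was the lowest of its group.

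Kcne2 is the member most closely tied to another tissue, since it encodes a KCNE subunit abundant in choroid plexus epithelium. It stood at 7.97, 7.67 and 7.33 in wildtype and 7.87, 7.47 and 8.13 in transgenic animals. The groups overlapped fully, and its residual spread was wide, with SDs of 0.32 and 0.34. The difference of 0.17 ± 0.21 (SE) was within that spread. All 12 choroid plexus and ependymal markers were higher in transgenic animals, 1 at an unadjusted p under 0.05 (8.33%, background 10.6%). Their mean relative level was 0.53, -0.54 and -0.94 in wildtype replicates 1 to 3 and 0.55, -0.25 and 0.65 in transgenic replicates 1 to 3. In both Kcne2 and the list, wildtype replicate 3 was the lowest array and transgenic replicate 3 the highest. When the Y-linked signal was a covariate, the difference of Kcne2 turned to -0.15 ± 0.25. The median difference of the 12 markers turned as well, from 0.68 to -0.24. The remaining KCNE genes Kcne3, Kcne4 and Kcne1l lay between 0.03 and 0.06.

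**Figure D3:**
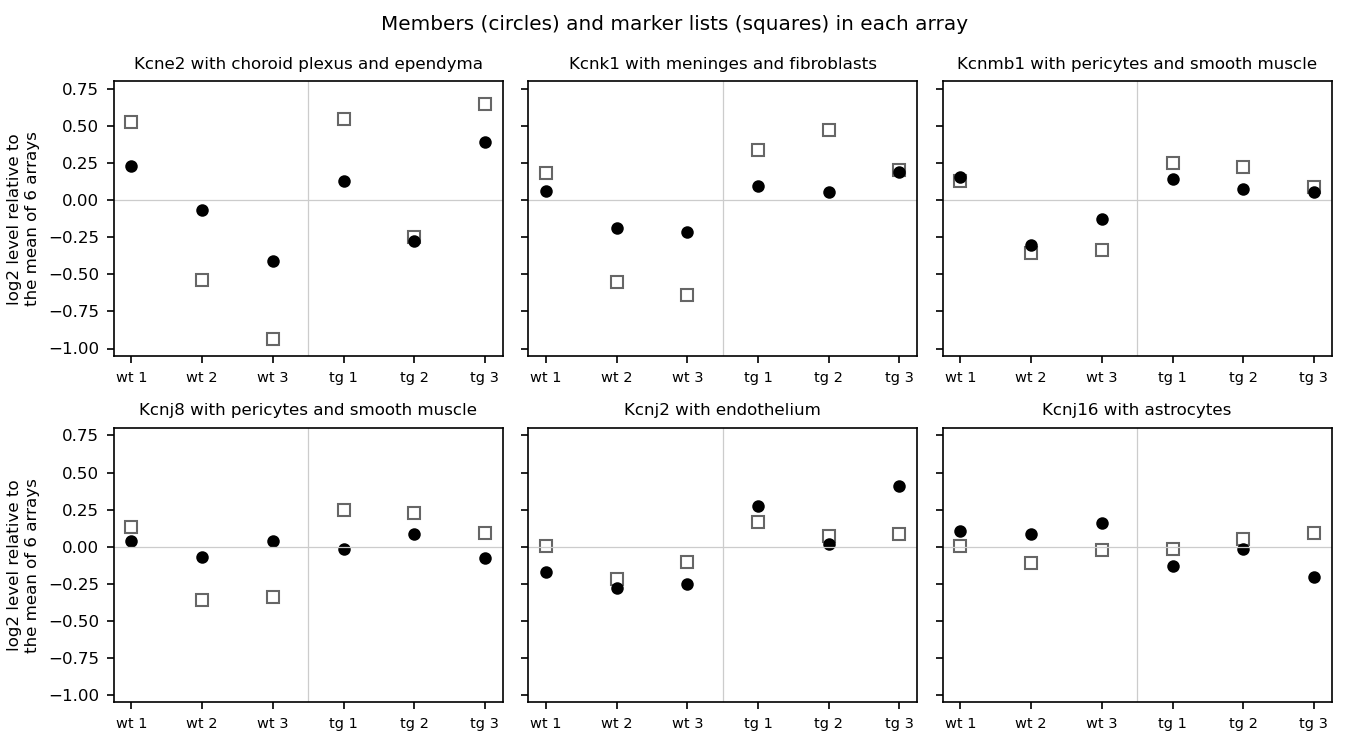
Log2 level in each array relative to the mean of the 6 arrays, for 6 members (filled circles) and for the mean of a list of marker genes (open squares), with wildtype (wt) and transgenic (tg) replicates along the axis. Kcnk1 and Kcnmb1 are lowest in wildtype replicates 2 and 3, as are the lists beside them and the choroid plexus, endothelial and astrocyte lists. Kcne2 is lowest in wildtype replicate 3 and highest in transgenic replicate 3, as its list is. Kcnj8 is level where the mean of the mixed pericyte and smooth muscle list is not.

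Kv1 subunits, which sit at axons and hold down repetitive firing, had narrow differences. The 7 measured genes had a median of 0.01, from -0.13 to 0.07, and none had an unadjusted p under 0.05. Kcna1 differed by 0.07 ± 0.06 (SE, 95% interval -0.07 to 0.21) and Kcna2 by 0.07 ± 0.06 (-0.07 to 0.20). Kcna2 levels were 10.66, 10.71 and 10.73 in wildtype and 10.76, 10.73 and 10.81 in transgenic animals, so the groups were apart by a margin smaller than the spread within either. Kcna7, mainly a muscle gene, had the lowest difference of the family at -0.13 ± 0.09.

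Modifier subunits form no channel alone and change the gating of Kv2 channels. The 8 genes of this kind had a median of -0.04. Kcnv2, known from photoreceptors, was at 6.44, 6.73 and 6.57 in wildtype and 6.45, 6.23 and 6.29 in transgenic animals. Wildtype replicate 1 lay below transgenic replicate 1, so the groups overlapped. The difference was -0.26 ± 0.10 (SE, limma adjusted p = 0.438) on a dim probe, and -0.13 ± 0.12 when the Y-linked signal was a covariate. Kcns3, a modifier found in parvalbumin interneurons, differed by -0.19 ± 0.10 and by -0.02 ± 0.12 with that covariate, and wildtype replicate 1 had 8.02 and replicates 2 and 3 had 8.40 and 8.17. Kcns1 differed by 0.07 ± 0.07. Among these 8 genes Kcnf1 had the widest spread in wildtype (SD 0.23), with 8.07 in replicate 1 and 8.45 and 8.49 in replicates 2 and 3, around transgenic values of 8.20 to 8.33. Its difference was -0.05 ± 0.12, and 0.20 ± 0.09 with the covariate.

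Kcnc1 encodes Kv3.1, which gives parvalbumin interneurons their brief spikes. Levels were 10.24, 10.21 and 10.34 in wildtype and 10.52, 10.34 and 10.51 in transgenic animals. The lowest transgenic and the highest wildtype value nearly met. The difference was 0.20 ± 0.07 (SE, limma adjusted p = 0.439), and 0.22 ± 0.11 with the covariate. The second probe of Kcnc1 did not show it, with a difference of 0.03 ± 0.12 (SE) and overlapping groups. Kcnc4, the other measured Kv3 gene, differed by 0.10 ± 0.07. Of 10 interneuron markers 7 were higher and 3 lower. An unadjusted p under 0.05 was reached by 1 (10%, background 10.6%), the neuropeptide gene Npy at 0.20 ± 0.08. Gad1, which makes GABA, also lay higher without overlap, by 0.13 ± 0.06, and Gad2, which encodes the other such enzyme, differed by -0.11 ± 0.07 with overlap. The list had a mean relative level of -0.03 to 0.02 in wildtype and -0.02 to 0.04 in transgenic animals.

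Kv4 channels carry the A-type current of dendrites and are built with KChIP proteins that sense calcium. Of 7 genes 6 were above 0, with a median of 0.07. Kcnip3, also known as calsenilin or DREAM, was at 10.94, 11.05 and 10.94 in wildtype and 11.11, 11.11 and 11.22 in transgenic animals. The groups did not overlap, and the difference was 0.17 ± 0.06 (SE, limma adjusted p = 0.439), or 0.21 ± 0.10 with the covariate. The pore gene Kcnd2, the main Kv4 of pyramidal cells, differed by 0.03 ± 0.06 (95% interval -0.12 to 0.18), and by -0.04 ± 0.09 with the covariate. Kcnip1 differed by 0.04 ± 0.07 and the X-linked Kcnd1 by -0.03 ± 0.08. Kcnip4, Kcnip2 and Kcnd3 differed by 0.11 ± 0.08, 0.07 ± 0.09 and 0.09 ± 0.07.

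KCNQ channels carry the M current that acetylcholine shuts. Kcnq3 differed by -0.02 ± 0.08 (SE, 95% interval -0.22 to 0.18) and Kcnq1, chiefly a heart and epithelial gene, by -0.10 ± 0.07. With the covariate Kcnq3 turned to 0.09 ± 0.11 and Kcnq1 was -0.06 ± 0.11. In the EAG family 4 of 5 genes were above 0, with a median of 0.06. Kcnh5 had the highest difference, 0.11 ± 0.10, and Kcnh3 the lowest, -0.04 ± 0.07, which became 0.01 ± 0.14 and 0.03 ± 0.10 with the covariate. In Kcnh2, the ERG channel, the groups were apart, with 8.32, 8.26 and 8.36 in wildtype and 8.38, 8.38 and 8.49 in transgenic animals, but the difference of 0.10 ± 0.06 had an adjusted p of 0.571 in limma.

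The small-conductance genes Kcnn1, Kcnn2 and Kcnn3, which end bursts, the intermediate-conductance gene Kcnn4 and the sperm channel gene Kcnu1 were all 5 below 0, from -0.19 to -0.08 with a median of -0.12. None had an unadjusted p under 0.05. Kcnn3 was at 8.80, 8.87 and 9.08 in wildtype and 8.70, 8.82 and 8.67 in transgenic animals, overlapping, with a difference of -0.19 ± 0.09 (SE, limma adjusted p = 0.501). Kcnn2, which shapes the afterhyperpolarisation of pyramidal cells, differed by -0.08 ± 0.06. Kcnu1 differed by -0.13 ± 0.06 without overlap, on a dim probe. When the Y-linked signal was a covariate, the differences were -0.07 ± 0.12 for Kcnn3, -0.01 ± 0.12 for Kcnn1 and -0.02 ± 0.11 for Kcnn4, while those of Kcnn2 and Kcnu1 were -0.15 ± 0.08 and -0.14 ± 0.10.

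For BK channels, which open to calcium and voltage together, the pore gene Kcnma1 differed by -0.09 ± 0.08 (SE) and the neuronal subunit Kcnmb4 by -0.02 ± 0.07. Both turned with the covariate, Kcnma1 to 0.04 ± 0.09 and Kcnmb4 to 0.06 ± 0.09, and the median of the 4 BK genes went from -0.05 to 0.01. Kcnmb1, the smooth muscle subunit, was at 7.95, 7.50 and 7.67 in wildtype and 7.95, 7.88 and 7.86 in transgenic animals. Wildtype replicate 1 was level with the highest transgenic animal, while wildtype replicates 2 and 3 were below all others. In the pericyte and smooth muscle markers wildtype replicates 2 and 3 were also the lowest, and their part in the difference was not tested. The difference was 0.18 ± 0.11 and became -0.05 ± 0.10 when the Y-linked signal was a covariate. Kcnmb2 lies on chromosome 3, as do all 7 genes called in the whole table, with 20 measured genes between it and Nlgn1, the nearest of them. Its levels were 7.44, 7.54 and 7.66 in wildtype and 7.44, 7.52 and 7.30 in transgenic animals, and the difference of -0.12 ± 0.09 (limma adjusted p = 0.617) did not pass and was -0.02 ± 0.11 with the covariate.

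K2P channels carry the background leak. Their 10 genes had a median of 0.01, with equal numbers above and below 0. Kcnk1 (TWIK1), a leak subunit of neurons and astrocytes, was at 10.33, 10.09 and 10.06 in wildtype and 10.37, 10.33 and 10.46 in transgenic animals. Wildtype replicate 1 stood among the transgenic animals and apart from wildtype replicates 2 and 3. The difference was 0.23 ± 0.09 (SE, limma adjusted p = 0.445) and 0.06 ± 0.09 when the Y-linked signal was a covariate. It was 0.31 ± 0.07 without wildtype replicate 1, a fit whose wildtype arrays all carry the Y-linked signal. All 14 markers of meninges and fibroblasts were higher in transgenic animals, 10 at an unadjusted p under 0.05 (71.4%, background 10.6%). Their mean relative level was 0.19, -0.55 and -0.64 in wildtype replicates 1 to 3 and 0.20 to 0.47 in transgenic animals. Their median difference was 0.56, and 0.17 with the covariate. Wildtype replicates 2 and 3, which carried the Y-linked signal, were also the lowest arrays of other marker lists. These were the endothelial, astrocyte, choroid plexus and ependymal, thalamus and habenula, and pericyte and smooth muscle lists. The part of any of these cells in the Kcnk1 difference was not tested.

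Kcnk13 (THIK1), the leak channel of microglia, had 6.88, 6.94 and 6.84 in wildtype and 6.59, 6.38 and 6.89 in transgenic animals. Transgenic replicates 1 and 2 were low and transgenic replicate 3 was within the wildtype range. The difference was -0.27 ± 0.12 (SE, limma adjusted p = 0.491), on a dim probe. Of 11 microglial markers 5 were higher and 6 lower, with a mean relative level of -0.06 to 0.05 in wildtype and -0.09 to 0.04 in transgenic animals. Kcnk2 (TREK1), a leak channel opened by stretch and lipids, differed by 0.12 ± 0.07. Kcnk3 (TASK1) had 1 transgenic animal apart, replicate 3 at 8.66 against 9.24 and 9.13, and differed by -0.18 ± 0.15.

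**Figure D4:**
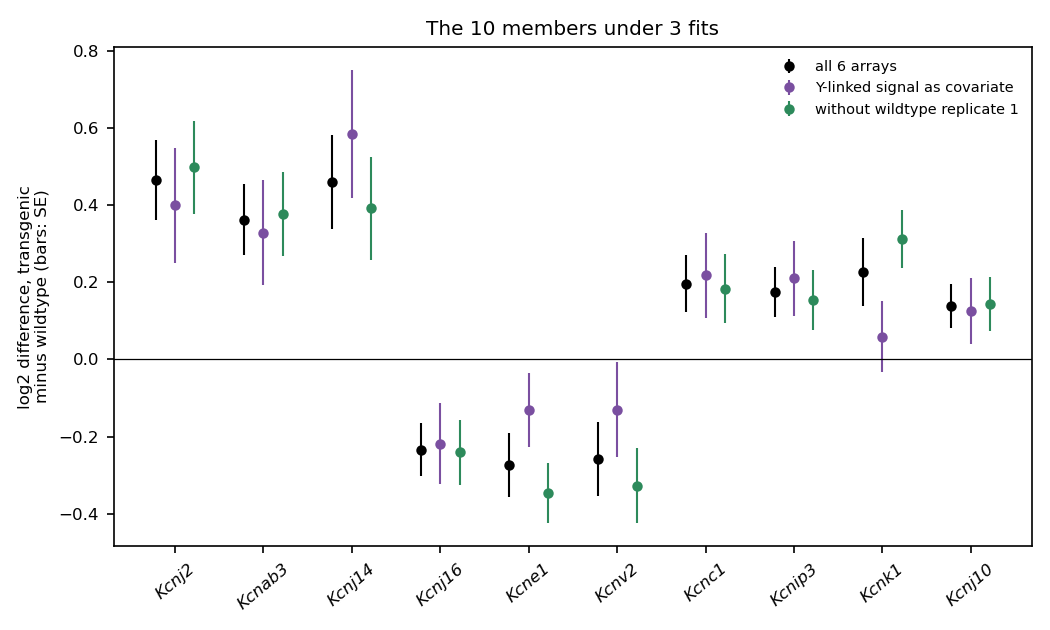
Log2 difference, transgenic minus wildtype, with its SE, of the 10 genes with an unadjusted p under 0.05 when all 6 arrays were fitted, when the Y-linked signal was a covariate and without wildtype replicate 1. Kcnj2, Kcnab3, Kcnj16 and Kcnj10 stay near their first value, while Kcnk1 goes from 0.23 to 0.06 and Kcne1 from -0.27 to -0.13 with the covariate.

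Across these fits all 10 genes kept their direction. With the covariate Kcnk1, Kcne1 and Kcnv2 moved by over 1.5 times towards 0, and the other 7 moved by less than that. That fit has a single wildtype array without the Y-linked signal, replicate 1, on which it rests, and with it 3 members (Kcnj2, Kcnab3 and Kcnj14) had an unadjusted p under 0.05, or 4.17%, against 2.96% of all probes. Without wildtype replicate 1 the whole table gave 103 calls, or 0.687%, and 0 of the 72 members were among them. The wildtype arrays left in that fit all carry the Y-linked signal, so it cannot separate group from that signal.

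Of the genes listed as working with potassium channels, none was called. Of 23 proteins listed as partners of Kv channels or as clustering them, 8 were higher and 15 lower, with a median of -0.03. An unadjusted p under 0.05 was reached by 1, or 4.35% (background 10.6%). That gene was Fgf13, on the list though it encodes an intracellular factor that binds sodium channels. It was at 10.44, 10.62 and 10.57 in wildtype and 10.22, 10.36 and 10.23 in transgenic animals. All transgenic animals were lower, and the difference was -0.27 ± 0.08 (SE, limma adjusted p = 0.431), or -0.17 ± 0.10 when the Y-linked signal was a covariate. The scaffold gene Dlg2, which clusters Kv1 channels, differed by -0.16 ± 0.07 (-0.06 ± 0.09 with the covariate), and Nedd4l, the ubiquitin ligase of KCNQ channels, by 0.13 ± 0.06. Among 6 partners of ATP-sensitive and calcium-activated channels 2 were higher and 4 lower, with a median of -0.09. Csnk2a1, the kinase subunit bound to small-conductance channels, differed by -0.32 ± 0.11 (limma adjusted p = 0.433).

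Of 29 receptors and G protein genes that gate potassium channels, 16 were higher and 13 lower, with a median of 0.02. An unadjusted p under 0.05 was reached by 3, or 10.3%, near the background of 10.6%. The groups did not overlap in 9, or 31.0%, against 17.7% of all probes, with 6 of them higher and 3 lower. Chrm4, a muscarinic receptor that acts through inhibitory G proteins, was at 9.55, 9.33 and 9.22 in wildtype and 9.84, 9.72 and 9.79 in transgenic animals. The groups were apart, with wildtype replicate 1 the nearest to the transgenic animals. The difference was 0.41 ± 0.09 (SE, limma adjusted p = 0.431), and 0.24 ± 0.09 when the Y-linked signal was a covariate. Without wildtype replicate 1 it was 0.51 ± 0.08 and passed (limma adjusted p = 0.0826). In that fit all wildtype arrays and no transgenic array carry the Y-linked signal, so group and signal cannot be told apart. The dopamine receptor gene Drd2 differed by -0.23 ± 0.08 and the serotonin receptor gene Htr1a by -0.16 ± 0.07. Of 19 pumps and cotransporters 13 were higher and 6 lower, with a median of 0.06 and 0 at an unadjusted p under 0.05 (background 10.6%). The sodium pump subunit gene Atp1b3 differed by 0.29 ± 0.13, but by 0.02 ± 0.10 with the covariate, and the pump regulator gene Fxyd1 by 0.30 ± 0.15 and -0.00 ± 0.15.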

How the data were processed

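Each array gave log2 values, which the authors deposited after RMA (named, like the build mm8, per the submitters' processing notes, with no version). RMA corrects background, normalizes between arrays and compresses differences of dim probes. Array medians lay between 7.44 and 7.47. Of 23332 probes, 14996 with 1 symbol in GEO's platform annotation were tested, while 1019 had several and 7317 none. RefSeq held 14941 of the 14996 by gene identifier, and 0 names changed.

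Transgenic and wildtype animals were compared two-sided, without covariates, by lmFit and eBayes of limma 3.58.1 under R 4.3.3, and p-values were adjusted by Benjamini-Hochberg across the 14996. On simulated data with independent normal errors the procedure recovered 92.2% of 2-fold and 76.1% of 1.5-fold differences, and 9.1% of its calls were false. That simulation held no imbalance of the Y-linked signal and no tissue differences shared between genes, so it does not cover them. Each run also held 200 changed probes, 4-fold ones among them, whereas the real table gave 7 calls. The adjustment is stricter where fewer probes differ, so these shares do not give the recovery in the real table. Errors are moderated standard errors. An exact permutation test of 3 against 3 cannot go below 0.1. For Kcnc1 the probe with the higher mean stood for the gene. The p-values cover the spread between these animals.

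Members, gene lists and naming rule were chosen with earlier results of these data known. The rule named members called, the 8 of smallest p in each direction, the extremes of each family, 22 chosen genes (5 not analysed here) and partner genes of smallest p. Other members were named after their values were seen. Alternatives covered a block on replicate number, 3 normalizations, probe filters, variance models, array weights, the Y-linked signal and left-out arrays.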

Additional observations from a re-analysis of the deposited data

How the results depend on the processing

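No potassium channel gene was called under any of the 18 alternatives or at a false discovery rate of 5%. The 7 calls of the whole table became 0 with all probes tested, without variance moderation, with the replicate number as a block, with a covariate for the Y-linked signal and without wildtype replicates 2 and 3, and 12 with array weights or with trend and robust estimation. They ranged from 0 to 103 when 1 array was left out. Calls past the fold numbered 7 at 1.5-fold in place of 2-fold, and 0 to 27 when 1 array was left out, 27 and 103 being without wildtype replicate 1. The count of 7 higher members at an unadjusted p under 0.05 was 4 with cyclic loess or further quantile normalization, 3 with the covariate and 1 without wildtype replicates 2 and 3, a fit in which the lone wildtype array is assumed to vary like the others. It ranged from 3 to 8 over single arrays left out. The 3 lower members became 1 without the dimmest 33.3% of probes, 0 with the covariate and 0 without wildtype replicates 2 and 3, and ranged from 2 to 6 over single arrays left out. The dim filter left 55 members, and for the other settings the cause was not tested. The median difference of the potassium channel genes ranged from -0.00402 (without transgenic replicate 2) to 0.049 when 1 array was left out. The same-numbered animals deviated together with correlations of 0.23, 0.15 and 0.02, so the numbers were not taken as pairs, and with the replicate number as a block 5 members were higher and 2 lower at an unadjusted p under 0.05. Of 66 named genes, 18 changed sign under some alternative, none of them at an unadjusted p under 0.05 in either fit. Chrm4 alone gained a call, in the fit without wildtype replicate 1. Of 11 family medians 6 changed sign.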
